A study of Mus musculus with 6 samples.

Results

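*Vtn*, *Plat*, *Plau*, *Serpine2*, *F3*, *Thbd*, *Tfpi*, *Procr* and *Vwf* were described across tdTomato-labelled cells sorted from the mouse cerebral cortex. They were chosen by name as vitronectin and genes of clotting and fibrinolysis. All 9 were found among the 23494 genes of the deposited tables of unique molecular identifiers (UMIs, 1 per captured transcript), and their UMIs were summed over the cells of each cluster and library.

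Clotting starts when tissue factor, the product of *F3*, meets plasma factor VII outside the vessel, and thrombin then cuts fibrinogen into fibrin. Tissue factor pathway inhibitor (*Tfpi*) blocks that first step, while thrombomodulin (*Thbd*) and the endothelial protein C receptor (*Procr*) turn thrombin towards activating protein C, an anticoagulant. Von Willebrand factor (*Vwf*) is stored in the Weibel-Palade bodies of endothelial cells and tethers platelets to the injured wall. Fibrin is removed by plasmin, made from plasminogen by tissue-type (*Plat*) or urokinase-type (*Plau*) plasminogen activator. Protease nexin-1 (*Serpine2*) inhibits thrombin and both activators. Vitronectin (*Vtn*) is an adhesive protein of plasma and matrix that is abundant in brain pericytes.

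Cells came from adult NG2-CreERT2/Ai14-flx and Tbx18-CreERT2/Ai14-flx mice aged 3 to 4 months, in which tamoxifen switches on tdTomato in cells where the NG2 (*Cspg4*) transgene or the *Tbx18* knock-in drives Cre, and in their descendants. Each line gave a naïve library from uninjured cortex, a physical injury library collected 3 days after an intracortical saline injection, and an ischemic injury library collected 3 days after injection of endothelin-1 with L-NAME, a vessel-constricting pair. All mice received tamoxifen, in the injured groups 7 days before injury, and only live tdT+ cells were sorted. Animals of both sexes were pooled into 1 library per group, so there was no replicate and no test between conditions. The 6 libraries held 686 to 4306 cells with a median of 2806 to 9232 UMIs per cell, lowest in the Tbx18-tdT+ naïve library, and any pair of libraries shared at most 5 cell barcodes. Levels are UMIs of a gene scaled to a common total of all UMIs in the summed cells (CPM), intervals are exact 95% intervals and cover counting error only, and differences are log2 ratios of CPM + 1. A gene entered a comparison with at least 20 CPM in the higher group and 10 counts in both groups together, and was called past the fold at 2-fold.

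Clusters were taken from the deposited tables, which were made separately for each line, and were named from marker lists. In the NG2-tdT+ table these were pericyte-like, smooth muscle-like, endothelial-like, oligodendrocyte-like, oligodendrocyte precursor cell (OPC)-like and microglia-like cells. Cluster 8 held pericyte transcripts but was led by *Cxcl1*, *Acta2* and *Tnc*, and it is kept by number, as is cluster 7, which mixed OPC and radial glial transcripts. The Tbx18-tdT+ table held pericyte-like, smooth muscle-like, endothelial-like and fibroblast-like cells and the unnamed clusters 3, 4 and 6. Over all cells and in the naïve library its pericyte-like cluster matched the pericyte list best. In both injured libraries that cluster matched the mesenchymal-like list best. There 48 of 433 physically injured and 2 of 86 ischemic cells had under 2 UMIs of the pericyte list, against 0 of 226 naïve ones. The part of this shift in its ratios to naïve was not tested. Hemoglobin transcripts led both endothelial-like clusters beside endothelial genes, and the erythroid list was higher in the injured than in the naïve libraries. The naïve cells of Tbx18-tdT+ clusters 3 and 4 carried pericyte transcripts that the injured cells there lacked, so those clusters were not compared with naïve cells.

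The reference annotation (GENCODE M21, build GRCm38) places the members on 7 chromosomes, and none overlaps another annotated gene. Stretches just before the annotated start of *Vtn*, *F3* and *Procr* are printed, since these had a promoter entry in RefSeq (GRCm38.p6) and, by values already seen, were high in pericyte-like cells (*Vtn*), in OPC-like cells and Tbx18-tdT+ cluster 4 (*F3*), and in smooth muscle-like and endothelial-like cells (*Procr*). Each is on the plus strand and ends at the base before the gene, at chr11:78498870-78499090 for *Vtn*, chr3:121723287-121723536 for *F3* and chr2:155750967-155751116 for *Procr*. Capitals mark matches on either strand to the TATA box (TATAAA), the AP-1 motif (TGANTCA) and the GC box (GGGCGG).
Vtn: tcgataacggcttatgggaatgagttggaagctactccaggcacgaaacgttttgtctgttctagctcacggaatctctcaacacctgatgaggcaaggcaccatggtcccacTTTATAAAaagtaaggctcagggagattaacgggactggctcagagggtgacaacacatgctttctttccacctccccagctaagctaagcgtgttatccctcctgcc
F3: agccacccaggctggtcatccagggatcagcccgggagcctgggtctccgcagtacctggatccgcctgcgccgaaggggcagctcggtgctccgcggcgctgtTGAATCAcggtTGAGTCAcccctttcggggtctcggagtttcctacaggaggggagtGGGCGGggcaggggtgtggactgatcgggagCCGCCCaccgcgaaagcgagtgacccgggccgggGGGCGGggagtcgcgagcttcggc
Procr: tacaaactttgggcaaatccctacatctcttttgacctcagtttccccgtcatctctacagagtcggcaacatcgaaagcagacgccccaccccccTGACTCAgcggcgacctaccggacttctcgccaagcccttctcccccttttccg
In the *Vtn* stretch TATAAA matched 106 bases before the start, and its reverse complement overlapped it, a motif held by 9.99% of all 32851 promoter windows of 221 bases. The *F3* stretch matched TGANTCA at 146 and 135 bases and GGGCGG at 89, 58 and 24 bases before the start, and 6.75% and 32.7% of windows of 250 bases held these letters. The *Procr* stretch matched TGANTCA at 54 bases, as did 4% of windows of 150 bases anywhere in the window. A match describes the letters only.

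Across the clusters the members fell into different cell classes. *Vtn* and *Tfpi* were high in pericyte-like cells and cluster 8, *Plat* in those and in endothelial-like cells, *Serpine2* in OPC-like cells and cluster 7 of the NG2-tdT+ table, and *Vwf* in endothelial-like cells. *F3* was high in OPC-like cells, in cluster 4 and in the fibroblast-like cells of the Tbx18-tdT+ table. *Procr* was at 30.7 to 51 CPM in smooth muscle-like and 14.8 to 42.8 CPM in endothelial-like cells. *Plau* was highest in cluster 8, microglia-like cells and Tbx18-tdT+ cluster 3.

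**Figure D1:**
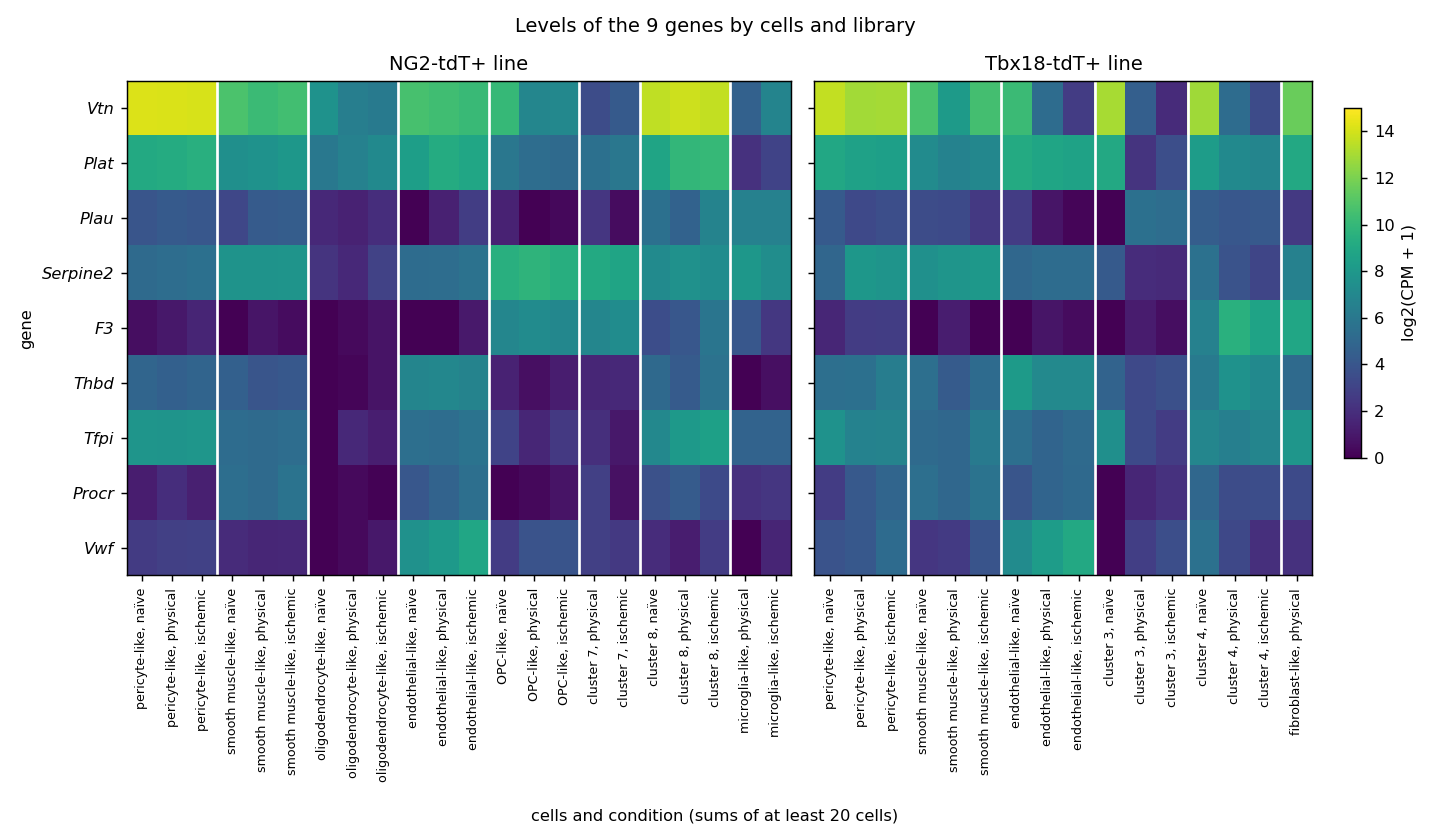
Level of each member gene (log2 of CPM + 1, colour) in each cluster class and library, with 1 column per class and library and 1 row per gene. *Vtn* is brightest in pericyte-like columns and cluster 8, *Vwf* in endothelial-like columns, and *Serpine2* in OPC-like columns.

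*Vtn* was at 19006 CPM (18931 to 19081) in naïve NG2-tdT+ pericyte-like cells, at 18350 after physical and at 17591 after ischemic injury, and 99.3% to 99.9% of these cells held at least 1 *Vtn* UMI. The ischemic library was therefore 0.11 lower on the log2 scale than the naïve one (-0.12 to -0.10), at the 28th percentile of all genes compared. Tbx18-tdT+ pericyte-like cells held 12420 CPM when naïve, 7714 after physical and 8131 after ischemic injury. Both injured libraries lay below the naïve one, by log2 ratios of -0.69 and -0.61, with a *Vtn* UMI in 79% and 94.2% of cells against 99.6%. Other markers moved with it in these cells: the list of 8 pericyte markers summed to 19525, 12826 and 11542 CPM, and the mesenchymal-like list to 345.6, 1668 and 2242 CPM. Their part in the *Vtn* difference was not tested.

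Between the lines, naïve *Vtn* was lower in Tbx18-tdT+ than in NG2-tdT+ pericyte-like cells by a log2 ratio of -0.61 (-0.64 to -0.59). This was short of 2-fold, and of all genes compared 4.38% were past 2-fold and 22.8% past a fold of 1.5. The pericyte list was at nearly the same level (19525 and 19677 CPM). The table that holds both naïve libraries gave the same order for *Vtn* in its 4 largest clusters. These held 12028 to 17647 CPM in Tbx18-tdT+ and 16667 to 23345 CPM in NG2-tdT+ cells. The pericyte list matched each of them best, although *Hbb-bs* led cluster 1 and *Hspa1b* led cluster 3. That table holds the same naïve cells and counts grouped anew, so it is not a further observation. Fibroblast-like cells of the Tbx18-tdT+ physical injury library also held *Vtn*, at 3085 CPM, with the pericyte list at only 450.9 CPM. There the ratio of *Vtn* to the pericyte list was 6.84, against 0.601 in the pericyte-like cells of that library. Genes whose levels followed *Vtn* most closely over 47 cluster and library sums were *Sod3* (Pearson r = 0.983), *Ndufa4l2* (0.965) and *Pdgfrb* (0.961), the last of which encodes a PDGF receptor used as a pericyte marker. These sums share libraries and cells, and *Ndufa4l2* and *Pdgfrb* were among the markers used to name clusters.

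Outside pericyte-like cells, *Vtn* levels were set beside the pericyte list. Its level in NG2-tdT+ endothelial-like cells was 1593, 1342 and 1144 CPM in the naïve, physical and ischemic libraries, and in Tbx18-tdT+ endothelial-like cells 1192, 38.8 and 5.46 CPM. Endothelial-like cells with under 2 UMIs of the pericyte list held 84.5, 24.5 and 14.3 CPM in NG2-tdT+ and 44.9, 9.38 and 2.47 CPM in Tbx18-tdT+ libraries. Those with 2 or more held 2122, 2134 and 2147 CPM and 1757, 142.8 and 29.6 CPM. In OPC-like cells *Vtn* was at 1039, 115.7 and 127.3 CPM and the pericyte list at 856.1, 141.6 and 183.3 CPM. The list was at 147.5, 87.7 and 102.7 CPM in oligodendrocyte-like cells. There 1 cell held 103 of 256 naïve *Vtn* UMIs and 1 held 254 of 593 physical ones. In Tbx18-tdT+ smooth muscle-like cells the list was at 6620 CPM when naïve and 2487 CPM after physical injury. Called lower for *Vtn* were the OPC-like (-3.16 and -3.02), oligodendrocyte-like (-1.21 and -1.51) and Tbx18-tdT+ endothelial-like cells (-4.90 and -7.53) of both injured libraries, and the smooth muscle-like cells of the Tbx18-tdT+ physical injury library (-2.53). Of all genes compared, 4.78% and 8.17% were past 2-fold in OPC-like, 1.93% and 5.94% in oligodendrocyte-like, 7.77% and 7.53% in Tbx18-tdT+ endothelial-like and 11.7% in Tbx18-tdT+ smooth muscle-like cells. The direction in NG2-tdT+ endothelial-like cells depended on the cells kept, with an ischemic log2 ratio of -0.48 over all cells. It was 0.50 when the cell filters of the methods were applied again to the deposited cells.

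*Plat*, the tissue-type plasminogen activator, was at 551.6, 610.8 and 701.9 CPM in naïve, physically injured and ischemic NG2-tdT+ pericyte-like cells. The ischemic log2 ratio was 0.35 (0.29 to 0.41), at the 95.9th percentile of 7212 genes, of which 0.555% were past 2-fold, and none of the 5 members compared there was. Each of the main pericyte-like clusters 0, 1 and 2 gave a like ischemic ratio, of 0.38, 0.37 and 0.37. In Tbx18-tdT+ pericyte-like cells the order was the opposite, with 500.3 CPM when naïve, 381.9 after physical and 346.2 after ischemic injury (log2 ratios -0.39 and -0.53). The pericyte list was also lower and the mesenchymal-like list higher in these injured cells, as given above, and the smooth muscle list was at 2181, 6729 and 3457 CPM. Their part in the *Plat* difference was not tested. Shares of cells with a *Plat* UMI, after thinning each cell to 1000 UMIs, were 41.8%, 44.5% and 46.7% in NG2-tdT+ and 38.6%, 25.6% and 24% in Tbx18-tdT+ pericyte-like cells, and unthinned 80.5%, 89.8% and 83.7%, and 82.3%, 44.8% and 53.5%. Thinning left out 40, 21 and 60 shallower cells of the first line and 3, 81 and 11 of the second.

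In cluster 8 the *Plat* difference was larger. Its 177 naïve cells held 430.1 CPM (384.1 to 480.1), its 81 physically injured cells 990.1 and its 240 ischemic cells 1045 CPM, and the log2 ratios to naïve were 1.20 and 1.28. *Tfpi* moved the same way in this cluster, at 127.1, 281.7 and 364.3 CPM (1.14 and 1.51). The background was high, since 12.5% of genes were past 2-fold after physical and 16.4% after ischemic injury, with *Plat* at the 96.6th and 96.3rd and *Tfpi* at the 96.1st and 97.6th percentile. Of the members, 2 of 6 were past the fold after physical and 4 of 7 after ischemic injury, all higher. In these comparisons 5.35% and 6.55% of genes were higher. Of the 4, *F3* was below the minimum level in naïve cells and could only be called higher. *Plau*, also among the 4, had 31 of its 34 naïve UMIs in 1 cell, and its ratio turned to -0.43 when thinned. Beside the members, the pericyte list was at 14233, 12227 and 11883 CPM and the smooth muscle list at 3368, 7092 and 4414 CPM. The mesenchymal-like list was at 1907, 1256 and 850.9 CPM, and the part of these lists was not tested.

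*Plat* also differed in glial and endothelial cells. Oligodendrocyte-like cells held 64.2, 94.7 and 140.7 CPM, with an ischemic log2 ratio of 1.12 (0.82 to 1.46) where 3.95% of genes were at least 2-fold higher. The cell filters of the methods were applied again to the deposited cells, and 19 of the 103 naïve and 505 of the 592 ischemic cells passed. The mean and SD were those of the deposited cells of each library. A cell left out here thus need not have failed the authors' own filters. The ratio could therefore not be run under those filters. NG2-tdT+ endothelial-like cells held 332.4, 610.2 and 478 CPM, so both injured libraries were above the naïve one by 0.87 and 0.52 without reaching 2-fold. Tbx18-tdT+ endothelial-like cells held 579.8, 445.1 and 396.5 CPM, both injured libraries below the naïve one by log2 ratios of -0.38 and -0.55. *Col4a1*, a basement membrane collagen, was the gene whose levels were most like those of *Plat* (r = 0.907).

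**Figure D2:**
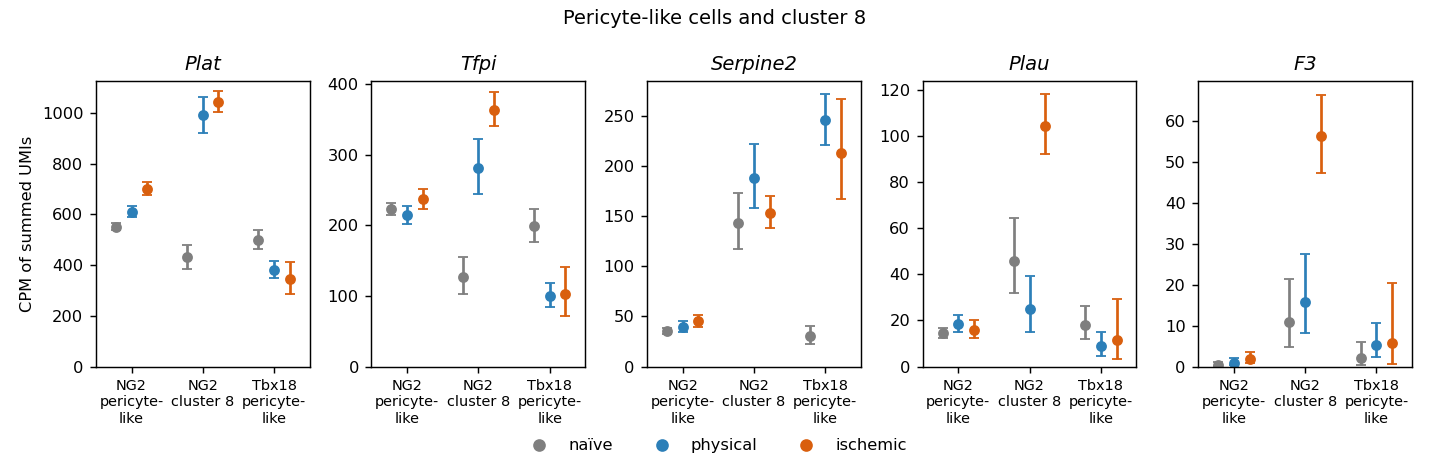
CPM of *Plat*, *Tfpi*, *Serpine2*, *Plau* and *F3* (vertical axes, 1 panel per gene) in NG2-tdT+ pericyte-like cells, NG2-tdT+ cluster 8 and Tbx18-tdT+ pericyte-like cells, by condition. Points are summed counts of 1 library and bars exact 95% Poisson intervals, and *Plat* reaches 990.1 and 1045 CPM in injured cluster 8 against 430.1 CPM in its naïve cells.

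*Plau*, the urokinase-type activator, was scarce. NG2-tdT+ pericyte-like cells held 14.5, 18.3 and 16 CPM, below the level needed to be compared. Smooth muscle-like cells of that line held 8.23, 18.9 and 20.8 CPM, from 32, 46 and 48 UMIs. There *Plau* was below the minimum level in naïve cells and could only be called higher. The ischemic log2 ratio was 1.24 (0.66 to 2.03) where 0.621% of genes were past 2-fold. A mean over cells in place of the sum brought that ratio to 0.59. The microglia-like cells of the NG2-tdT+ physical and ischemic libraries held 95.7 and 97.3 CPM, with 14 of 55 and 94 of 350 UMIs in 1 cell. Tbx18-tdT+ cluster 3 held 45.9 and 40.9 CPM after physical and ischemic injury. There the microglia list was at 6797 and 5414 CPM and the border macrophage list at 1607 and 1267 CPM. The monocyte and neutrophil list was at 762 and 1364 CPM, and it matched the ischemic cells best. *Gpsm3* and *Ctsz*, genes of myeloid cells, were among the genes with levels most like those of *Plau* (r = 0.76 and 0.753).

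Few cells decided *Plau* in cluster 8. The level was 46, 25 and 104.5 CPM in naïve, physically injured and ischemic cells, but 31 of the 34 naïve UMIs lay in 1 cell, and 67 of the 258 ischemic UMIs did so too. The share of cells with a *Plau* UMI was 2.26% (0.619 to 5.68), 14.8% (7.9 to 24.4) and 22.5% (17.4 to 28.3), at median depths of 4026, 7733 and 8444 UMIs. At 1000 UMIs per cell the shares were 1.15%, 2.5% and 1.69%, and no order can be read from them. The ischemic log2 ratio of 1.17 turned to -0.43 in the thinned cells.

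*Serpine2*, the protease nexin that inhibits thrombin and both activators, was highest in OPC-like cells and cluster 7. OPC-like cells held 701.4, 852.3 and 663.8 CPM in the naïve, physical and ischemic libraries, and cluster 7 held 560.8 and 434.2 CPM in the injured ones. Mature oligodendrocyte-like cells held 2.27 to 6.93 CPM. Microglia-like cells of the injured libraries held *Serpine2* too, with 142 UMIs over 24 of 36 cells after physical and 580 over 116 of 164 after ischemic injury. No *Serpine2* ratio in OPC-like cells reached 2-fold, the farthest from 0 being -0.36 between ischemic and physical injury. In smooth muscle-like cells of NG2-tdT+ mice the level was nearly the same in all libraries, at 207.5, 209.2 and 212.4 CPM, with an ischemic log2 ratio of 0.03 (-0.13 to 0.20).

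Pericyte-like cells of the lines differed in *Serpine2* after injury. NG2-tdT+ cells held 35.4, 39.5 and 45.2 CPM, whereas Tbx18-tdT+ cells held 30.3 CPM (22.1 to 40.5) when naïve, 245.9 CPM (221.3 to 272.4) after physical and 212.8 CPM (167.4 to 266.8) after ischemic injury. The log2 ratios to naïve were 2.98 (2.57 to 3.50) and 2.77 (2.26 to 3.38), at the 98.5th and 98.3rd percentile of comparisons in which 11.2% and 15.5% of genes were past 2-fold. The naïve libraries of the lines differed by -0.22, an interval of -0.70 to 0.22, and the injured ones by 2.61 and 2.21, where 10.4% and 16.1% of genes were past 2-fold. In Tbx18-tdT+ cells 1 of 5 members was past the fold after physical and 3 of 7 after ischemic injury, all higher. In these comparisons 7.16% and 8.68% of genes were higher. Beside *Serpine2*, those past the fold after ischemic injury were *Procr* and *Vwf*. Both were below the minimum level in naïve cells and could only be called higher. Smooth muscle-like cells of the Tbx18-tdT+ line held *Serpine2* at 183.7 to 251.8 CPM, and the smooth muscle list in the Tbx18-tdT+ pericyte-like cells summed to 2181 CPM when naïve and 6729 and 3457 CPM after injury, against 27014 to 42661 CPM in the smooth muscle-like cells themselves. The endothelial list there summed to 517.1, 1355 and 1652 CPM, and without cells holding 2 or more of its UMIs the physical injury ratio was 3.71. The NG2-tdT+ pericyte-like cells leave out cluster 8, which was clustered apart and held *Serpine2* too. It had 106, 143 and 379 *Serpine2* UMIs in the naïve, physical and ischemic libraries, of 739344, 759556 and 2468003 UMIs in all. Its pericyte list was at 14233, 12227 and 11883 CPM, against 12826 and 11542 CPM in injured Tbx18-tdT+ pericyte-like cells. The part of other cells and of the separate clustering in this difference was not tested.

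*F3*, tissue factor, was at or near 0 in most vascular cells. NG2-tdT+ pericyte-like cells held 6, 5 and 9 *F3* UMIs in all, and endothelial-like cells of the line 0, 0 and 5, which for the naïve cells allows up to 5.78 CPM (exact interval). Smooth muscle-like cells of both lines were at 0 to 1.27 CPM. OPC-like cells held 117.8 (91.3 to 149.6), 150.1 (138 to 162.9) and 123.8 CPM (113.1 to 135.3), and the intervals of the naïve library overlapped those of both injured ones. In injured cluster 7 the level was 115.5 and 157.1 CPM. With cells thinned to 1000 UMIs, 10.3%, 11.2% and 15% of OPC-like cells held an *F3* UMI, intervals that overlap one another, and unthinned 30%, 63.1% and 57.1% at median depths of 4692, 12390 and 11764.

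Cluster 8 held *F3* at 10.8, 15.8 and 56.3 CPM, from 8, 12 and 139 UMIs. The ischemic library was higher than the naïve one by a log2 ratio of 2.28 (1.36 to 3.62) and than the physical one by 1.77 (0.98 to 2.82), the 99th and 99.6th percentiles. UMIs were found in 3 of 177 naïve, 7 of 81 physically injured and 47 of 240 ischemic cells. In the naïve library 1 cell held 5 of the 8 UMIs, and in the physical one 1 cell held 6 of the 12. A mean over cells brought the ratio of ischemic to naïve to 1.65 and thinning to 1.64. Between ischemic and physical injury, 4.18% of genes were past 2-fold in this cluster, 1.61% higher. Past the fold were 3 of 7 members, all higher in the ischemic library: *Plau* (2.02), *F3* and *Thbd* (18.4 and 49.8 CPM, 1.39). *F3* and *Thbd* were below the minimum level in the physical library and could only be called higher. Thinning brought the *Plau* ratio to 0.23, and 1 cell held 67 of the 258 ischemic *Plau* UMIs. For *Thbd* 1 cell held 22 of 123 ischemic UMIs. The physical levels of *Plau* and *Thbd* rest on 19 and 14 UMIs.

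The Tbx18-tdT+ table held the highest *F3* levels, in cluster 4 with 726 CPM (694.4 to 758.7) after physical and 420.9 CPM (386.4 to 457.6) after ischemic injury, and in fibroblast-like cells with 477.4 CPM after physical injury. The log2 ratio between the injuries in cluster 4 was -0.79 (-0.93 to -0.65), where 10.6% of genes were past 2-fold. Cluster 4 was mixed, and cells with and without a UMI of *Slc47a1* or *Dpp4*, meningeal genes chosen after the values were seen, were set apart. The 147 such cells of the physical and 43 of the ischemic library held *F3* at 1755 and 1383 CPM, found in 131 and 33 of them, whereas the 202 and 100 other cells held 33.1 and 20.7 CPM. *Thbd* split the same way, at 454.9 and 442 CPM against 27 and 10.9 CPM. *Tfpi*, the inhibitor of tissue factor, was at 120.1 and 141.2 CPM in the marked cells. The marked cells also held more of the nuclear RNA *Malat1* (76411 and 44753 CPM against 2324 and 655.7 CPM), and the part of nuclear content in these levels was not tested. *Trpm3*, *Mmp2* and *Adam12* were the genes most like *F3* across sums (r = 0.843, 0.842 and 0.839).

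**Figure D3:**
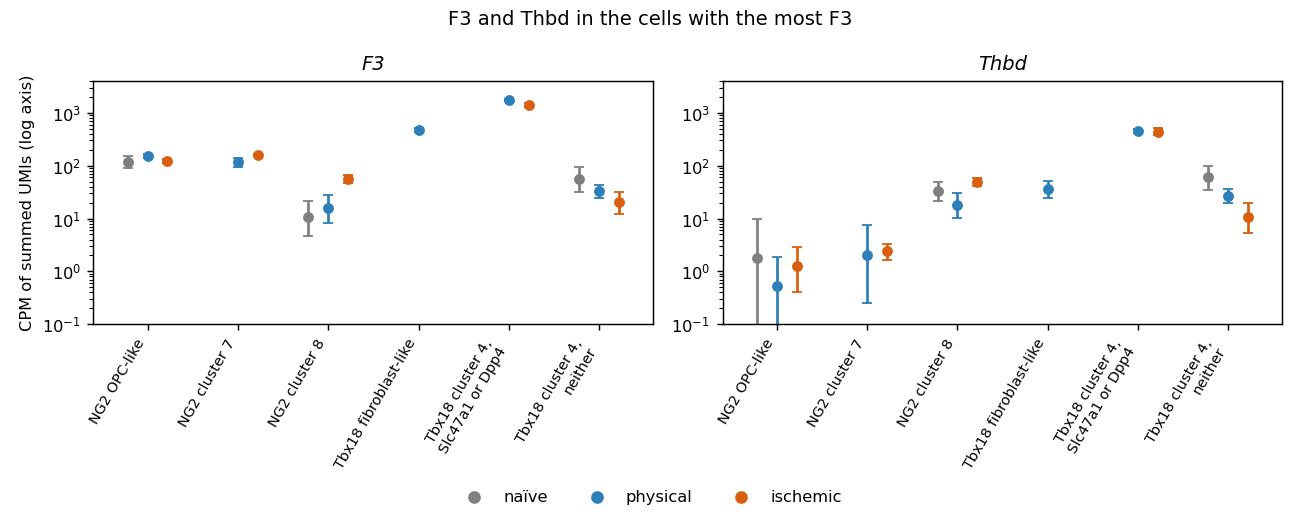
CPM (log axis) of *F3* and *Thbd* in sums of at least 20 cells by cluster class and condition, with cluster 4 of the Tbx18-tdT+ table split by a UMI of *Slc47a1* or *Dpp4*. Points are summed counts of 1 library with exact 95% Poisson intervals, and the marked cells of cluster 4 stand at 1755 and 1383 CPM of *F3*.

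*Tfpi* was higher in pericyte-like than in endothelial-like or smooth muscle-like cells. NG2-tdT+ pericyte-like cells held 223.5, 214.5 and 237.2 CPM, with no ratio beyond 0.14 on the log2 scale, against 40.6 to 50.4 CPM in endothelial-like and 35.4 to 40.2 CPM in smooth muscle-like cells. Tbx18-tdT+ pericyte-like cells held 199 CPM (177 to 223.1) when naïve, 100.4 CPM (84.9 to 117.8) after physical and 102.2 CPM (71.6 to 141.4) after ischemic injury. Both injured libraries lay below the naïve one, by log2 ratios of -0.98 and -0.96, just inside 2-fold. *Vtn* and the pericyte list were lower in the same cells, as given above. *Tfpi* in Tbx18-tdT+ fibroblast-like cells after physical injury was at 234.1 CPM, and *Eva1b* had the levels most like it (r = 0.931).

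*Vwf* in endothelial-like cells was lowest in the naïve and highest in the ischemic library of each line. NG2-tdT+ cells held 191.3 CPM (158.8 to 228.4), 281.5 CPM (264.6 to 299.2) and 474.9 CPM (455.5 to 494.9) in the naïve, physical and ischemic libraries. Tbx18-tdT+ cells held 152.4 CPM (125.6 to 183.2), 308.8 CPM (299.1 to 318.8) and 535.2 CPM (523.1 to 547.4). No interval overlapped another within a line. The ischemic log2 ratio to naïve was 1.31 (1.05 to 1.59) in NG2-tdT+ and 1.81 (1.54 to 2.09) in Tbx18-tdT+ cells, at the 98.6th and 99.6th percentile, and 2.72% of genes were at least 2-fold higher in the first and 5.07% past 2-fold in either direction. Physical injury gave 0.56 and 1.01, and ischemic against physical injury 0.75 and 0.79.

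The share of cells with a *Vwf* UMI was highest in the ischemic library of each line. After thinning to 1000 UMIs, 18% (11 to 26.9), 18.2% (14.5 to 22.3) and 29.7% (25.5 to 34.2) of NG2-tdT+ endothelial-like cells and 10.9% (6.26 to 17.4), 22.2% (20.3 to 24.2) and 30.2% (27.8 to 32.6) of Tbx18-tdT+ endothelial-like cells held a *Vwf* UMI. Thinning left out 1, 3 and 5 cells and 22, 53 and 10 cells. Unthinned, the shares were 43.6%, 63.9% and 75.5% at median depths of 5720, 7522 and 8622 UMIs, and 30.2%, 59.4% and 77.8% at 2600, 6702 and 8981 UMIs. Pericyte-like cells of the NG2-tdT+ line, which should lack the gene, held a *Vwf* UMI in 0.451% to 0.655% of thinned and 1.83% to 3.01% of unthinned cells at median depths of 3810 to 4665 UMIs. Endothelial-like cells under 2 UMIs of the pericyte list gave the same order, with 241.3, 348.7 and 516.4 CPM and 167.5, 337 and 556.2 CPM. The erythroid list, whose level differed between naïve and injured libraries, was at 702.3, 8837 and 10331 CPM in the NG2-tdT+ and 36.4, 4148 and 4148 CPM in the Tbx18-tdT+ cells, and its part in the *Vwf* difference was not tested. The platelet list was at 7.04 to 18.1 CPM in NG2-tdT+ and 6.74 to 14.1 CPM in Tbx18-tdT+ endothelial-like cells.

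**Figure D4:**
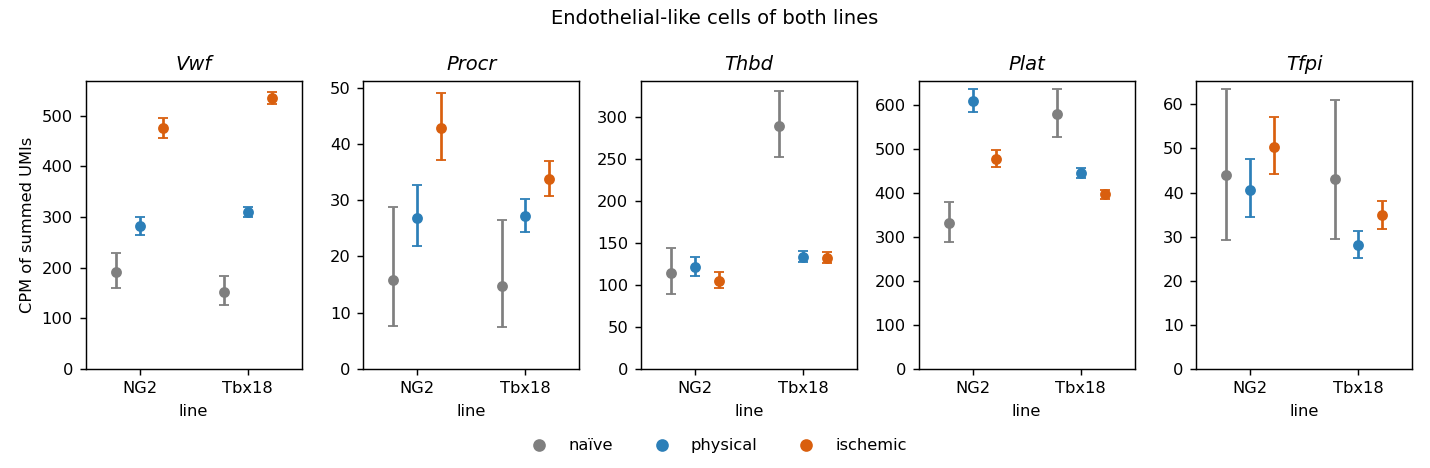
CPM of *Vwf*, *Procr*, *Thbd*, *Plat* and *Tfpi* (vertical axes from 0, 1 panel per gene) in endothelial-like cells of each line, naïve in grey, physical injury in blue and ischemic injury in orange. Points are summed counts of 1 library with exact 95% Poisson intervals, and *Vwf* is at 191.3 and 474.9 CPM in the naïve and ischemic NG2 libraries and at 152.4 and 535.2 CPM in those of Tbx18.

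*Vwf* is known as a gene of veins and large vessels rather than capillaries, and endothelial-like cells were therefore set apart by lists of venous and arterial transcripts. Marked cells held 2 or more UMIs of their list and none of the other list. The venous list does not mark venous endothelium alone, since in the Tbx18-tdT+ table it summed to 901.1, 851.5 and 1081 CPM in pericyte-like cells against 462.5, 595.8 and 790.7 CPM in endothelial-like cells. Venous-marked NG2-tdT+ cells held *Vtn* at 3390, 1726 and 1604 CPM and arterial-marked ones at 104.8, 39.3 and 240.6 CPM, so the split also sorted cells by a pericyte transcript. In the Tbx18-tdT+ line these values were 2003, 41.3 and 7.66 CPM and 253.9, 10.2 and 1.49 CPM, and the part of pericyte transcripts in the zone differences was not tested. In the Tbx18-tdT+ ischemic library the 460 venous-marked cells held 716.5 CPM and the 166 arterial-marked cells 292 CPM, a log2 ratio of 1.29 (1.14 to 1.45). The physical injury library gave 378.7 and 225.7 CPM (0.74, 0.57 to 0.93), and the naïve one 198.2 and 153.7 CPM (0.36, -0.47 to 1.22). In the NG2-tdT+ line the ischemic library gave 525.7 CPM in 185 venous-marked and 155.1 CPM in 24 arterial-marked cells (1.75, 1.23 to 2.35). The physical injury library differed by 0.17 (-0.26 to 0.63) and the naïve one by -0.88 (-1.57 to -0.19) over 27 and 11 cells. With 1 UMI of a list enough for the mark, the naïve ratio of this line was -0.60 (-1.26 to 0.07). The ischemic one was then 1.67 (1.17 to 2.23). Ischemic levels lay above naïve ones in the venous-marked cells of both lines, in arterial-marked Tbx18-tdT+ cells and in all other endothelial-like cells, which held 122.4, 317.3 and 457.7 CPM in NG2-tdT+ and 136.9, 280.9 and 473.9 CPM in Tbx18-tdT+ libraries. In arterial-marked NG2-tdT+ cells the naïve level was the highest, at 419.3 CPM. Cells of a zone come from 1 library and are no replicates.

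**Figure D5:**
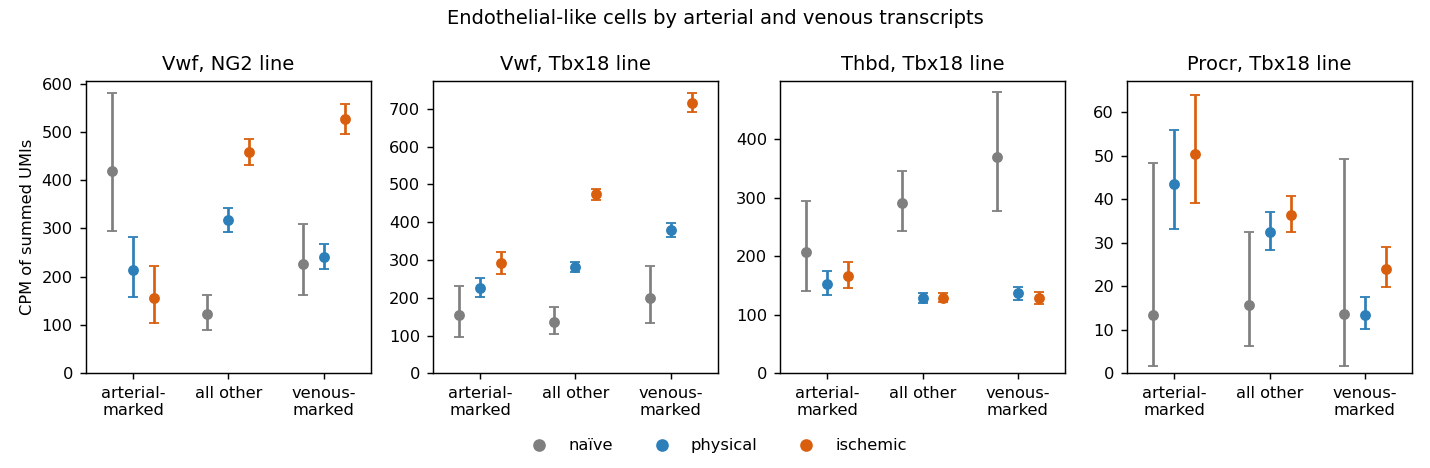
CPM of *Vwf* in both lines and of *Thbd* and *Procr* in the Tbx18 line, in arterial-marked, venous-marked and all other endothelial-like cells by condition. Points are summed counts with exact 95% Poisson intervals, and venous-marked *Vwf* is at 525.7 and 716.5 CPM in the ischemic libraries against 155.1 and 292 CPM in arterial-marked cells.

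*Procr*, the protein C receptor, was at 15.7, 26.8 and 42.8 CPM in NG2-tdT+ and 14.8, 27.1 and 33.8 CPM in Tbx18-tdT+ endothelial-like cells. Both naïve values rest on few UMIs, 10 and 11, and the ischemic log2 ratios were 1.39 (0.54 to 2.53) and 1.14 (0.34 to 2.20). In NG2-tdT+ cells with under 2 pericyte list UMIs the order was lost, since 27 naïve cells held 7 UMIs or 42.2 CPM against 38.3 and 40.3 CPM after injury. Arterial-marked cells of the Tbx18-tdT+ line held more than venous-marked ones, at 43.5 against 13.5 CPM after physical (-1.62, -2.23 to -1.14) and 50.5 against 24.1 CPM after ischemic injury (-1.04, -1.52 to -0.61). In the NG2-tdT+ ischemic library they held 42.8 and 40.4 CPM. *Procr* was also a smooth muscle transcript here, at 41.9, 35 and 51 CPM in NG2-tdT+ and 42.9, 30.7 and 50.4 CPM in Tbx18-tdT+ smooth muscle-like cells, against 1.32 to 2.95 CPM in NG2-tdT+ pericyte-like cells. Tbx18-tdT+ pericyte-like cells held it at 5.38, 17.5 and 28.4 CPM and *Vwf* at 13.4, 16.2 and 36.9 CPM, the ischemic values from 10 and 13 UMIs, and the endothelial list was higher in the same libraries, as given above.

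*Thbd*, the thrombin receptor, did not differ past 2-fold in NG2-tdT+ endothelial-like cells, at 114.4, 121.4 and 105.2 CPM with an ischemic log2 ratio of -0.12 (-0.48 to 0.25). Naïve Tbx18-tdT+ endothelial-like cells stood apart with 289.9 CPM (252.4 to 331.3), against 133.9 and 132.6 CPM after injury, log2 ratios of -1.11 and -1.12. A mean over cells reduced these to -0.32 and -0.29. Between the naïve libraries of the lines the ratio was 1.33 (0.95 to 1.74), where 11.7% of genes were past 2-fold, and between the ischemic ones 0.33 (0.19 to 0.48). *Thbd* was lower in venous-marked than in arterial-marked cells of the injured NG2-tdT+ libraries (-0.67 and -0.76) and of the Tbx18-tdT+ ischemic library (-0.37, -0.60 to -0.15). The Tbx18-tdT+ physical injury library gave -0.16 (-0.39 to 0.07), and the naïve one went the other way, with 369.1 CPM in venous-marked and 207.1 CPM in arterial-marked cells (0.83, 0.17 to 1.52). With 1 UMI of a list enough for the mark, that naïve ratio was 0.56 (-0.08 to 1.23). The NG2-tdT+ physical injury ratio was then -0.45 (-0.94 to 0.06) and the Tbx18-tdT+ one -0.22 (-0.43 to -0.02). In the endothelial-like cells of the Tbx18-tdT+ line, 3 of 7 members were past the fold after physical and 4 of 7 after ischemic injury, where 7.77% and 7.53% of genes were. *Vtn* and *Thbd* were the lower ones in both, and *Vwf*, joined after ischemic injury by *Procr*, the higher. In those of the NG2-tdT+ line none of 7 and 2 of 7 (*Vwf* and *Procr*, both higher) were past the fold, where 4.29% and 5.07% of genes were. *Procr* was under 20 CPM in the naïve endothelial-like cells of both lines, so it could only be called higher.

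Of a list of 56 other genes around clotting and fibrinolysis, 52 were found in the tables. Beside coagulation factors, anticoagulants and genes of plasminogen activation and its inhibition, the list holds thrombin receptors and vitronectin receptors. It also holds genes of platelet adhesion and partners of the Weibel-Palade bodies, so its counts and medians are not those of clotting genes alone. In NG2-tdT+ endothelial-like cells 18 were compared between ischemic injury and naïve, with 3 higher and none lower (median log2 ratio -0.04, all genes -0.05), where 2.72% of genes were higher and 2.36% lower. Among them, *Plaur*, the urokinase receptor, was at 23.5, 88.6 and 101.2 CPM and *Angpt2*, a Weibel-Palade body cargo, at 26.7, 16.3 and 58.8 CPM. In Tbx18-tdT+ endothelial-like cells 3 of 19 were higher and 4 lower (median 0.03, all genes -0.02), where 2.1% of genes were higher and 5.43% lower. *Selp*, the platelet and leukocyte adhesion receptor stored with *Vwf*, was at 0, 6.34 and 40 CPM and *Anxa2*, a plasminogen receptor, at 120, 242.5 and 251.5 CPM. *Lrp1*, *F2r*, *Itgb5* and *Cd63* were lower, and the pericyte list in these cells was at 2773, 325.3 and 101.8 CPM. *Selp* and *Angpt2* were below the minimum level in naïve cells and could only be called higher. The genes called lower were below it in the ischemic library and could only be called lower.

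In NG2-tdT+ pericyte-like cells 14 genes were compared after ischemic injury, with 1 higher and none lower (median log2 ratio 0.05, all genes -0.01). Of all genes compared, 0.499% were higher and 0.0555% lower. In cluster 8, 18 genes were compared with 3 higher and 2 lower after ischemic injury (median 0.49, all genes -0.15), where 6.55% of genes were higher and 9.85% lower. *Plaur* was at 2.71, 63.2 and 127.6 CPM and *Thbs1* at 5.41, 82.9 and 96.8 CPM. *Anxa2* was at 236.7 and 517 CPM when naïve and ischemic, while *Angpt2* was at 185.3, 101.4 and 24.3 CPM. *Plaur* and *Thbs1* were below the minimum level in naïve cells and could only be called higher. Of 18 genes in Tbx18-tdT+ pericyte-like cells, 7 were higher and 2 lower after ischemic injury (median 0.60, all genes 0.02), where 8.68% of genes were higher and 6.79% lower. The pericyte and mesenchymal-like lists differed in these cells too, as given for *Vtn*. Among the 9 were *Angpt2* at 14.1, 106.4 and 207.2 CPM and *Serping1* at 76, 228.4 and 244.1 CPM. The thrombin receptor *F2r* was lower, at 115.7, 45.1 and 48.2 CPM. *Gas6*, *Plaur*, *S100a10* and *Angpt2* were below the minimum level in naïve cells and could only be called higher. The ischemic levels of *Gas6* and *Plaur* rest on 8 and 9 UMIs.

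In glial cells, 4 of 12 genes were higher and none lower in ischemic than in naïve oligodendrocyte-like cells (median 0.28, all genes 0.04), where 3.95% of genes were higher. *S100a10* and *Anxa2*, which together form a plasminogen-binding complex, were at 3.06, 1.28 and 38.2 CPM and 4.59, 5.68 and 39.5 CPM. *Masp1* was at 7.64, 28.5 and 63.1 CPM. All 4 genes were below the minimum level in naïve cells and could only be called higher. Few of these naïve cells passed the reapplied cell filters, as given for *Plat*. OPC-like cells held *S100a10* at 0, 3.17 and 45.6 CPM and *Pros1*, protein S, at 19.3, 41.5 and 77.2 CPM. After ischemic injury 3 of 15 genes were higher and none lower (median 0.35, all genes 0.04), where 4.79% of genes were higher. These 3 genes were also below the minimum level in naïve cells and could only be called higher. In the smooth muscle-like cells of the NG2-tdT+ line *Thbs1* alone of 19 was past 2-fold, where 0.424% of genes were higher, at 123.2 CPM when naïve and 276.8 CPM after ischemic injury (1.16, 1.00 to 1.34).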

How the data were processed

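Sorted tdT+ cells of 6 pooled samples, 1 library per group, were sequenced as 10x 3' single-cell libraries. Per the methods, the authors aligned reads to mm10 with Cell Ranger. The methods name a range of versions and the submitters' processing notes 7.0.0, and the version used for each library is not given. The authors removed cells under 200 genes, over 12% mitochondrial reads or beyond 2 SD of the mean, and integrated and clustered the libraries in Seurat. The deposited values are raw UMI counts per gene and cell with the authors' cluster numbers and percent mitochondrial reads per cell. Doublet removal is not stated, and no caller was run. The naïve libraries are in 2 of the 3 tables with identical counts and were taken from each line's own table.

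Counts were summed per cluster class and library with numpy 2.4.6 and scipy 1.17.1 and divided by all UMIs of those cells (CPM). Classes with at least 20 cells in both libraries were compared. Intervals of levels are exact Poisson, of shares exact Clopper-Pearson and of ratios exact conditional binomial, all at 95%, and that of a ratio is for the ratio without the pseudocount of 1 CPM. With 1 library per group no test was run. Scaling alternatives used edgeR 4.0.16 (TMM) and DESeq2 1.42.0 (size factors). Other settings were a pseudocount of 5 CPM, a fold of 1.5, no minimum level, means over cells, thinning to 1000 UMIs, leaving out the top 5% of cells by UMIs, reapplied cell filters and leaving out cells with other classes' markers. Scripts were tested on simulated data. The members, lists and tests were chosen with earlier results of these data known. Named genes are the 9 members, genes of the clotting and fibrinolysis list past 2-fold in a comparison described, and for each member the 3 genes with the highest Pearson r of log2(CPM + 1) over sums of at least 20 cells, among genes reaching 50 CPM, some of which are named. Promoter stretches are the part of RefSeq windows, which begin 250 bases before a RefSeq start, that lies before the GENCODE start. Some genes of the lists are not reported here.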

Additional observations from a re-analysis of the deposited data

Results flagged for a closer look

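In 5 comparisons a member differed in opposite directions in the lines, each beyond its own counting interval. The share of all genes doing so was not computed, so this count is not a result about the members. Counting intervals are narrow for abundant genes such as *Vtn*, and small differences can pass. The difference between the lines was not tested, and each line gave 1 library per condition. In pericyte-like cells the log2 ratio of *Plat* to naïve was 0.15 in NG2-tdT+ and -0.39 in Tbx18-tdT+ cells after physical injury, and 0.35 and -0.53 after ischemic injury. The pericyte list in these cells was at 19677, 19135 and 20605 CPM in the naïve, physical and ischemic libraries of the NG2-tdT+ line and at 19525, 12826 and 11542 CPM in those of the Tbx18-tdT+ line, and its part was not tested. In endothelial-like cells the log2 ratio of *Plat* was 0.87 and -0.38 after physical injury, and 0.52 and -0.55 after ischemic injury. *Vtn* in pericyte-like cells differed between ischemic and physical injury by -0.06 in NG2-tdT+ and 0.08 in Tbx18-tdT+ cells.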

How the results depend on the processing

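Of 338 alternative values of 46 ratios, 328 kept their sign, and the median shift was 0.10 on the log2 scale. Within the counting interval stayed 255, while 81 moved beyond it and a further 2, also beyond it, reversed a called ratio. A total of 34 alternatives could not be run because under 20 cells remained. No paired analysis was possible because each group had 1 library and no comparison rests on a test, and no replicate could be left out. Settings that leave out cells holding pericyte or endothelial markers, and the split of cluster 4, were chosen after seeing the data. Means over cells moved *Vwf* in Tbx18-tdT+ endothelial-like cells after ischemic injury to 2.15, *Serpine2* in Tbx18-tdT+ pericyte-like cells after physical injury to 2.44 and *Vtn* in NG2-tdT+ pericyte-like cells after ischemic injury to -0.16. Thinning moved the last to -0.14 and *Plat* there to 0.28, and size factors moved *Vtn* to -0.09. Without cells with markers of another class, which left 48 of 3287 naïve and 22 of 1128 ischemic cells, *Plat* was 0.62 and *Vtn* -1.26. TMM gave 1.47 for ischemic *Plat* in cluster 8. Means over cells and thinning brought ischemic *F3* in that cluster from 2.28 to 1.65 and 1.64. Without cells with endothelial markers the ischemic ratios in cluster 8 were 1.52 for *Plat*, 0.99 for *Tfpi* and 6.43 for *F3*, the last over 70 naïve cells with 0 *F3* UMIs, so that 31 ischemic cells were at least 6.7-fold higher than 3 counts over the naïve cells. That setting gave 3.71 for *Serpine2* and -0.18 for *Vtn* in pericyte-like cells. Without cells with pericyte markers, *Thbd* between the naïve endothelial-like cells of the lines was 1.88, and *Procr* in NG2-tdT+ endothelial-like cells after ischemic injury turned to -0.06. *Plau* in cluster 8 after ischemic injury turned to -0.43 when thinned. With no minimum level or a fold of 1.5, the share of genes past the fold after ischemic injury was 16.3% and 17.8% in NG2-tdT+ endothelial-like cells (5.07% as reported), 17.3% and 20.1% in Tbx18-tdT+ endothelial-like cells (7.53%) and 25.3% and 37.8% in cluster 8 (16.4%). The cause of these shifts was not tested. Only 101 and 159 naïve endothelial-like cells limit the precision of *Procr* and *Vwf*.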
